A study of Mus musculus with 6 samples.

Results

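Transcripts of 30 hepatocyte genes were followed in RNA from liver sinusoidal endothelial cells (LSECs). The genes were chosen by name as abundant transcripts of the hepatocyte, 21 for secreted plasma proteins and 9 for proteins that stay in the cell, and each was found in a single row of the 34745 genes in the count table. The libraries came from 3 samples labelled ECKO and 3 samples of littermates labelled Tgfbr2f/f (f/f), which the sample titles call WT. For ECKO the labels describe an endothelial knockout of Tgfbr2, the type II receptor for TGF-beta. From these labels the floxed gene of f/f is taken to be intact. Mice of both genotypes had received the liver toxin carbon tetrachloride (CCl4) by intraperitoneal injection 2 times a week over 6 weeks. The sources used here name neither the Cre line that drives the knockout, nor the age of the mice, nor how LSECs were isolated. Nothing in the labels says that each library is a separate mouse, so p-values measure the spread between these libraries only.

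Hepatocytes make most proteins of blood plasma, among them albumin, the apolipoproteins that carry lipids, and fibrinogen, and they house the urea cycle, gluconeogenesis and the breakdown of many amino acids. These genes are driven by liver-enriched transcription factors such as HNF1, HNF4 and C/EBP, and many enzymes are zoned, with urea and glucose synthesis strongest near the portal vein and CYP2E1, which activates CCl4, strongest near the central vein. LSECs lie beside hepatocytes and are not known as a source of these plasma proteins.

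Library totals ran from 17171850 to 18671217 counts in ECKO and from 17632271 to 25062755 in f/f. The labelled cell type was met in every library, where 19 endothelial markers, such as Stab2 and Lyve1, took 3.50% to 4.04% of counts in ECKO and 3.64% to 4.09% in f/f. Tgfbr2 itself showed no loss in libraries labelled ECKO, at 498, 487 and 511 CPM in ECKO and 387, 442 and 452 CPM in f/f (log2 fold change 0.22, SE 0.10; edgeR adjusted p = 0.228). Counts over the whole gene can miss the loss of an exon, and the deleted part is not stated, so the genotypes, and every direction given here, rest on the labels. Genes encoded in mitochondrial DNA held 32.4%, 19.7% and 23.7% of counts in ECKO and 23.5%, 14.2% and 11.5% in f/f. Levels are TMM-scaled CPM (a gene's share of its library's counts, adjusted for library composition), and fold changes are log2 of ECKO over f/f from edgeR's quasi-likelihood test on all 13692 genes that passed a filter on low counts, with Benjamini-Hochberg adjustment over all of them and a threshold of 0.05. All 30 hepatocyte genes passed the filter.

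Hepatocyte transcripts were a small share of every library and did not separate the genotypes. Together the 30 genes took 0.240%, 0.342% and 0.176% of counts in ECKO 1, 2 and 3, a mean of 0.253% ± 0.0835 (SD, n = 3), and 0.293%, 0.200% and 0.223% in f/f 1, 2 and 3, a mean of 0.239% ± 0.0485 (n = 3). The groups overlapped: ECKO 2 was the highest library, f/f 1 the second and ECKO 3 the lowest. Set against the endothelial markers, the sum was 6.87, 9.22 and 4.36 per 100 marker counts in ECKO and 8.06, 5.13 and 5.44 in f/f, with the same 2 libraries on top. In bulk RNA, fewer hepatocytes and less hepatocyte RNA per cell cannot be told apart, and whether the RNA came from whole cells, free RNA or the LSECs themselves was not tested.

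**Figure D1:**
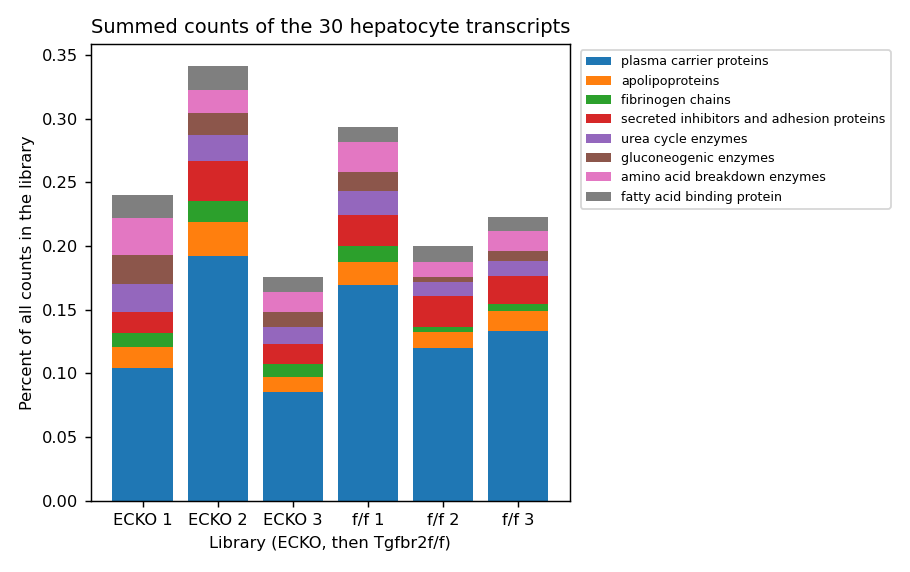
Stacked bars give the percent of all counts in each library taken by the 30 hepatocyte transcripts, split by role, for the 3 ECKO libraries and then the 3 f/f libraries. The bars reach 0.342% in ECKO 2 and 0.293% in f/f 1, and the other 4 libraries lie between 0.176% and 0.240%.

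No transcript passed the test: edgeR called 0 of 30 higher and 0 lower, where 1.24% of all tested genes were called higher and 2.79% lower, 4.03% in all. At an unadjusted p under 0.05, 4 were higher (Tdo2, Fabp1, Arg1 and Apoa1) and 1 was lower (Ambp), which is 13.3% and 3.33% of the 30 against 10.4% and 13.1% of all genes. DESeq2 called those 5 genes, 4 higher and 1 lower, with 3.43% and 7.58% of all genes called in those directions, while limma-voom called none, with 0.84% and 1.46% of all genes called. CPM of the groups did not overlap for 3 genes higher in ECKO (Tdo2, Fabp1 and Apoa1), where 15.7% of all genes did so, and for 1 gene lower (Ambp), where 15.2% did so. On FPKM, only Tdo2 of these 4 still separated. Fabp1 had 211 FPKM in ECKO 3 and 234 in f/f 2, and Apoa1 had 28.4 in ECKO 3 and 32.9 in f/f 3. Ambp had 31.79 FPKM in ECKO 2 and 31.76 in f/f 1. The median log2 fold change of the 30 was 0.45 against 0.01 for all tested genes, and 24 of the 30 (80.0%) had a positive value against 51.4% of all genes. Without ECKO 2 the median was 0.13 with 20 of 30 positive, and without f/f 2 it was 0.21 with 22 positive. Under total count scaling it was 0.26 with 22 positive, and the median of all genes was -0.22; on FPKM with a pseudocount of 0.1 it was 0.24 with 18 of 28 positive, and that of all genes was -0.18.

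Libraries of one genotype differed widely in these transcripts. Levels in f/f 1 were above the mean of f/f 2 and 3 for 28 of the 30, with a median log2 difference of 0.87, while the median over all genes was -0.02. Levels in ECKO 2 were above the mean of ECKO 1 and 3 for 25 of the 30, with a median log2 difference of 0.56. The highest and lowest library of a group differed by a median of 1.93-fold in ECKO and 2.18-fold in f/f. Across the 6 libraries, ECKO 2 was the highest for 17 genes and ECKO 1 for 8, and f/f 2 was the lowest for 17.

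**Figure D2:**
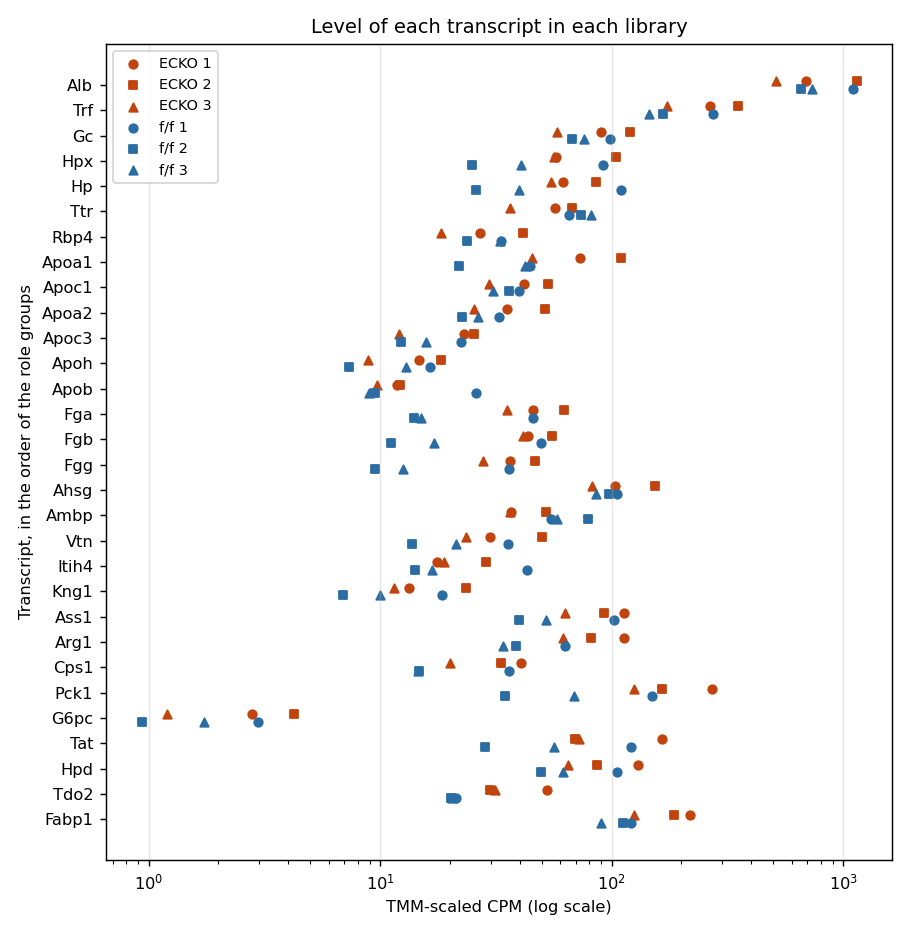
Each point is the TMM-scaled CPM (log axis) of 1 transcript in 1 library, with ECKO libraries in orange above the f/f libraries in blue, and transcripts in the order of their roles. The f/f 1 point lies with the ECKO points for Fga, Fgb and Fgg, and the 2 colours separate for Apoa1, Ambp, Tdo2 and Fabp1 only. On FPKM, not drawn here, only Tdo2 of these separates.

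Among 7 carrier proteins of plasma, 4 fold changes were positive and 3 negative, and none passed; that of Gc, 0.15, turned negative under total count scaling. Alb, the main plasma protein and carrier of fatty acids, had the highest FPKM of the 30 averaged over all 6 libraries, rank 79 of all genes in the table, at 287 ± 140 FPKM in ECKO and 346 ± 60.0 FPKM in f/f (SD, n = 3 each). Fabp1, at 293 ± 70.8 FPKM in ECKO and 211 ± 22.7 FPKM in f/f, lay above Alb in ECKO 1 and 3 and below it in the other 4 libraries. The level of Alb was 695, 1145 and 515 CPM in ECKO and 1107, 655 and 733 CPM in f/f. Its groups overlapped fully. The log2 fold change of Alb was -0.08 (SE 0.33, 95% interval -0.86 to 0.69, edgeR adjusted p = 0.894). That interval leaves room for a change in either direction. Ttr, transthyretin, which carries thyroid hormone and the retinol carrier Rbp4, was at 56.8, 67.3 and 36.2 CPM in ECKO and 65.2, 73.8 and 81.1 CPM in f/f, a log2 fold change of -0.46 (SE 0.22; edgeR adjusted p = 0.251). Only ECKO 2 reached into the f/f range. Trf (the iron carrier transferrin), Gc (the vitamin D carrier), Hp and Hpx (which bind free haemoglobin and heme) and Rbp4 had log2 fold changes from -0.05 to 0.47, with adjusted p from 0.451 to 0.928.

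Among 6 apolipoprotein genes, 5 fold changes were positive and none passed. Apoa1, the main protein of high-density lipoprotein, was at 72.8, 110 and 45.1 CPM in ECKO and 44.3, 21.96 and 42.0 CPM in f/f. The groups did not overlap by CPM, though ECKO 3 and f/f 1 nearly met, and they overlapped on FPKM. The log2 fold change was 1.07 (SE 0.38, 95% interval 0.15 to 1.99, edgeR adjusted p = 0.162). Its neighbour Apoc3, an inhibitor of triglyceride clearance that lies beside Apoa1 on chromosome 9 (46228580 to 46230466 for Apoa1 and 46232933 to 46235636 for Apoc3, mm10), had a log2 fold change of 0.26 (SE 0.32; edgeR adjusted p = 0.658). Apoc1, the most abundant of the 6 per length, was at 41.7, 52.9 and 29.6 CPM in ECKO and 39.6, 36.0 and 30.6 CPM in f/f, groups that overlapped. Apoa2 and Apoh had values of 0.45 and 0.19, that of Apoh turning negative under total count scaling, and Apob, the large scaffold of very low-density lipoprotein, had -0.40 (SE 0.42), with f/f 1 high at 25.9 CPM and the other 5 libraries at 8.95 to 12.2 CPM; without f/f 1 it had 0.29. Reads of Apoh could include some of Prkca, whose locus overlaps it on the other strand, because the strand setting is not given.

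The 3 chains of fibrinogen, the precursor of the fibrin clot, had like values in each library, and 1 library decided their calls. Their genes lie side by side on chromosome 3 of mm10: Fgg at 83007724 to 83015049, Fga at 83026076 to 83033627 and Fgb at 83040141 to 83049863. Fga was at 45.7, 62.5 and 35.4 CPM in ECKO and 45.9, 14.1 and 14.95 CPM in f/f. Fgb was at 43.6, 55.1 and 41.4 CPM in ECKO and 49.8, 11.2 and 17.1 CPM in f/f. Fgg was at 36.4, 46.5 and 27.9 CPM in ECKO and 35.9, 9.53 and 12.6 CPM in f/f. For each chain f/f 1 lay within the ECKO range, and f/f 2 and 3 lay below all 3 ECKO libraries. With all libraries the log2 fold changes were 0.94 for Fga, 0.84 for Fgb and 0.93 for Fgg (SE 0.49 to 0.52; edgeR adjusted p 0.300 to 0.373).

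Without f/f 1, edgeR's adjusted p was 0.0130 for Fga, 0.00922 for Fgb and 0.0127 for Fgg, with log2 fold changes of 1.73, 1.73 and 1.75. That fit called 4 of the 30 higher, the fourth being Arg1, and 0 lower, where it called 1.76% of all 14016 genes higher and 5.47% lower. Its median over the 30 was 0.86. Without both libraries highest in the sum, f/f 1 and ECKO 2, a choice made after their values were seen, the 3 chains were again called higher and Ambp lower, where that fit called 3.46% and 8.12% of all genes. Without each other library in turn no member was called. The mitochondrial share of f/f 1, 23.5%, also lay within the ECKO range of 19.7% to 32.4%, and its part in these results was not tested.

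**Figure D3:**
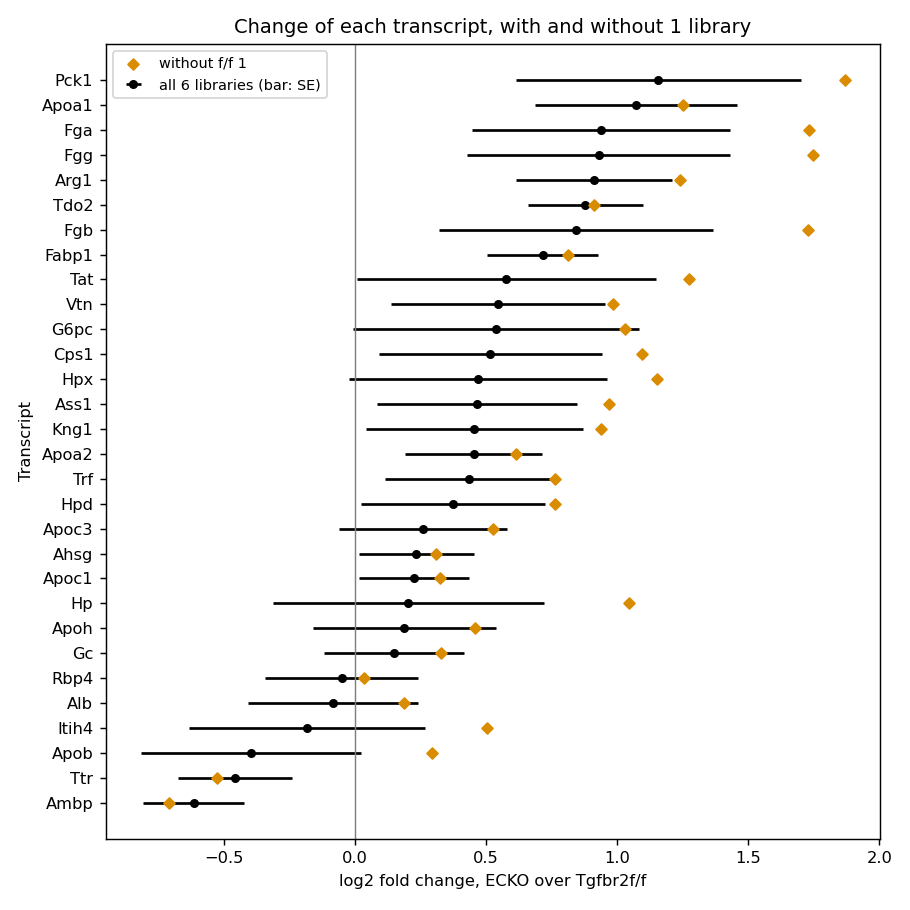
Black points are log2 fold changes of ECKO over f/f from all 6 libraries with the SE as bars, and orange diamonds are the values without f/f 1, for the 30 transcripts. Without that library the values of Fga, Fgb and Fgg lie at 1.73, 1.73 and 1.75, and 28 of the 30 are above 0.

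The bases before the fibrinogen genes are shown with those before Alb because the chains had fold changes of 0.84 to 0.94 while that of Alb was -0.08. None of these fold changes passed, and 95% intervals overlapped (-0.24 to 2.11 for Fga and -0.86 to 0.69 for Alb). Any part of these bases in the levels was not tested. The sequences are RefSeq's on GRCm38.p6, read 5′ to 3′ in the direction of the gene and ending before RefSeq's start of the gene, and Fga is cut at the start of its deposited locus. Capitals mark GTTAAT, an HNF1 half-site, TTGCNNAA, a C/EBP motif, and CTGGGAA, a motif known from acute phase genes, each searched on both strands; no matches overlap in these 4 windows. The windows are chr3:83025903-83026075 (plus strand), chr3:83049864-83050113 (minus strand), chr3:83007474-83007723 (plus strand) and chr5:90460620-90460869 (plus strand).
Fga: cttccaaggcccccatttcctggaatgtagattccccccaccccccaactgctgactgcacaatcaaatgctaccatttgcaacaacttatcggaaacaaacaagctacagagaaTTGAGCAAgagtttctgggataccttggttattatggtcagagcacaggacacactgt
Fgb: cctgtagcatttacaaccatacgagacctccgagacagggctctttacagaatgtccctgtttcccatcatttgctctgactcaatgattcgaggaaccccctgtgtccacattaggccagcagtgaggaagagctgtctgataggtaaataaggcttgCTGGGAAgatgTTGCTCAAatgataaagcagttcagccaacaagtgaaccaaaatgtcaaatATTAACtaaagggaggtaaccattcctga
Fgg: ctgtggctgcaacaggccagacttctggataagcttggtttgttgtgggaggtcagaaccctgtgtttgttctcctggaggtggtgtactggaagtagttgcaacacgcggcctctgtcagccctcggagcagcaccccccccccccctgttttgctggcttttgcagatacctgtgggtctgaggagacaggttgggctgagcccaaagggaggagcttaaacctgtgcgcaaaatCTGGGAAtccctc
Alb: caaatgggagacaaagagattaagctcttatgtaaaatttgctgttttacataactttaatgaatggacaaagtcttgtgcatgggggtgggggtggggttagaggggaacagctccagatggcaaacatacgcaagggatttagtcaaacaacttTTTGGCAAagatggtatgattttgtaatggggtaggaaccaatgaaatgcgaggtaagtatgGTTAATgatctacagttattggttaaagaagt
Fgb held all 3 motifs, Fga and Alb held the HNF1 and C/EBP letters (the HNF1 match of Fga lies in the bases left out here), and Fgg held CTGGGAA alone. Of the 30 genes, 22 had an entry in the promoter table. In the 250 bases before the start, GTTAAT was found in 8 of the 22 (36.4%) and in 6.43% of all 32851 promoters, TTGCNNAA in 7 (31.8%) and 9.56%, and CTGGGAA in 4 (18.2%) and 9.10%. The TATA box TATAAA was found in 6 (27.3%) and 12.4%. These are matches of letters only.

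Of 5 secreted inhibitors and adhesion proteins, 3 fold changes were positive, 2 were negative and none passed. Ambp, the precursor of alpha-1-microglobulin and the inhibitor bikunin, was the only gene of the 30 whose ECKO libraries all lay below f/f by CPM. It was at 36.8, 52.1 and 36.5 CPM in ECKO and 54.7, 79.3 and 58.3 CPM in f/f, a log2 fold change of -0.62 (SE 0.19, 95% interval -1.06 to -0.17; edgeR adjusted p = 0.115). Ahsg, fetuin-A, a binder of calcium phosphate and the most abundant of the 5 per length, was at 103, 153 and 81.9 CPM in ECKO and 105, 97.7 and 85.6 CPM in f/f, groups that overlapped. Vtn (the adhesion protein vitronectin), Kng1 (kininogen) and Itih4 (an acute phase relative of the bikunin-linked heavy chains) had values of 0.54, 0.45 and -0.18. Itih4 was at 17.6, 28.7 and 18.9 CPM in ECKO and 43.2, 14.1 and 16.7 CPM in f/f, so that f/f 1 alone set its direction. Without that library Itih4 was at 0.50, Kng1 at 0.94 and Vtn at 0.98 (edgeR adjusted p 0.159 to 0.240). Kng1 has a close relative in the table, Kng2, with 282 counts in all against 1631 for Kng1, and the 2 can share reads.

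All 9 intracellular genes had positive fold changes and none passed. Tdo2, the liver's tryptophan dioxygenase, came nearest to the threshold. It was at 52.8, 29.8 and 31.2 CPM in ECKO and 21.3, 20.2 and 20.3 CPM in f/f. The groups did not overlap, f/f varied little (SD 0.593 CPM), ECKO 1 stood above the other ECKO libraries, and the log2 fold change was 0.88 (SE 0.22, 95% interval 0.37 to 1.39; edgeR adjusted p = 0.0684).

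Fabp1, the fatty acid binding protein of liver cytosol, was at 219, 187 and 125 CPM in ECKO and 121, 112 and 90.2 CPM in f/f, a log2 fold change of 0.72 (SE 0.21; edgeR adjusted p = 0.103). By CPM its lowest ECKO library lay just above its highest f/f library, and on FPKM the groups overlapped. Arg1, the last enzyme of the urea cycle and the most abundant per length of the 3 urea cycle genes here, was at 113, 81.1 and 61.7 CPM in ECKO and 63.1, 38.8 and 33.8 CPM in f/f, a log2 fold change of 0.91 (SE 0.30; edgeR adjusted p = 0.132). Here ECKO 3 and f/f 1 overlapped. Cps1 and Ass1, which start the cycle and make argininosuccinate, had values of 0.52 and 0.46 (adjusted p 0.501 and 0.500).

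Pck1, the cytosolic enzyme that commits carbon to gluconeogenesis, had the widest range of the 30, 7.88-fold between its highest and lowest library. It was at 272, 165 and 125 CPM in ECKO and 149, 34.5 and 68.5 CPM in f/f. The groups overlapped through f/f 1, and the log2 fold change was 1.16 (SE 0.54, 95% interval -0.14 to 2.46; edgeR adjusted p = 0.256). G6pc, which releases free glucose, was low, with 42, 73 and 21 counts in ECKO and 71, 19 and 42 counts in f/f. Tat, the tyrosine aminotransferase, was the most abundant per length of the 3 amino acid enzymes, at 165, 69.6 and 72.2 CPM in ECKO and 121, 28.4 and 56.5 CPM in f/f, which overlapped. Hpd, the next enzyme of tyrosine breakdown, had a log2 fold change of 0.37 (SE 0.35), and Psmd9 overlaps its locus on the other strand.

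Secreted and intracellular transcripts peaked in different ECKO libraries. Of the 21 secreted genes, 16 were highest in ECKO 2 and none in ECKO 1, while of the 9 intracellular genes 8 were highest in ECKO 1 and 1, G6pc, in ECKO 2. The intracellular genes took 38.4%, 21.97% and 29.96% of the summed counts of the 30 in ECKO and 23.5%, 19.6% and 20.8% in f/f. ECKO 2 lay within the f/f range, and ECKO 1 and 3 lay above it. The mitochondrial share was also highest in ECKO 1 (32.4%), and its part in this pattern was not tested. The split into 2 classes joins role groups after their values were seen, so it is given with no test.

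Albumin took a smaller part of the hepatocyte transcripts in each ECKO library than in any f/f library. The log2 fold change of Alb, -0.08, lay below the median of the 30, 0.45, and its share is another view of that gap. Its share of the summed counts of the 30 was 24.1%, 33.6% and 27.3% in ECKO, a mean of 28.3% ± 4.85 (SD, n = 3), and 36.0%, 37.8% and 38.1% in f/f, a mean of 37.3% ± 1.12 (n = 3). The groups did not overlap (two-sided exact permutation p = 0.1, the smallest that 3 against 3 allow). Such ratios within a library do not depend on the scaling, and they show unequal levels, not which transcript differed.

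Set against Alb, 13 of the other 29 transcripts were higher in every ECKO library than in any f/f library and 0 were lower. Of all tested genes, 2.72% were higher against Alb in this way and 3.33% lower, against 15.7% and 15.2% by CPM. That share is no fair baseline for the 29, because dividing by Alb adds its spread to genes that do not vary with it. Like Alb, many of the 29 were high in ECKO 2 and f/f 1, and for them the ratio removes shared spread. How far this raised the count of 13 was not tested. All 29 ratios share the Alb counts as their denominator. The 13 were Pck1, Fga, Fgb, Fgg, Apoa1, Arg1, Hpx, Vtn, Kng1, Trf, Apoa2, Apoc3 and Gc. For each the exact permutation test gave p = 0.1 (two-sided), the smallest that 3 libraries against 3 allow. Benjamini-Hochberg adjustment over the 29 made it 0.223. Some of the 13 separated narrowly. In counts per 100 Alb counts, Hpx had 8.30 in ECKO 1 and 8.28 in f/f 1. Gc had 10.5 in ECKO 2 and 10.3 in f/f 3, and Apoc3 had 2.21 and 2.15 in the same libraries.

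Pck1 had 39.2, 14.4 and 24.3 counts per 100 Alb counts in ECKO and 13.4, 5.27 and 9.35 in f/f, and ECKO 2 and f/f 1 nearly met. Apoa1 had 10.5, 9.62 and 8.75 counts per 100 Alb counts in ECKO and 3.999, 3.35 and 5.74 in f/f, a clear gap. Fga had 6.58, 5.46 and 6.88 counts per 100 Alb counts in ECKO and 4.15, 2.14 and 2.04 in f/f, so that f/f 1, within the ECKO range by CPM, lay below it on this scale. Trf had 38.2, 30.8 and 33.7 counts per 100 Alb counts in ECKO and 24.7, 25.5 and 19.9 in f/f. At the other end Ambp had 5.30, 4.55 and 7.08 counts per 100 Alb counts in ECKO and 4.94, 12.1 and 7.96 in f/f, which overlapped, as did Ttr, Apob, Rbp4 and Itih4.

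**Figure D4:**
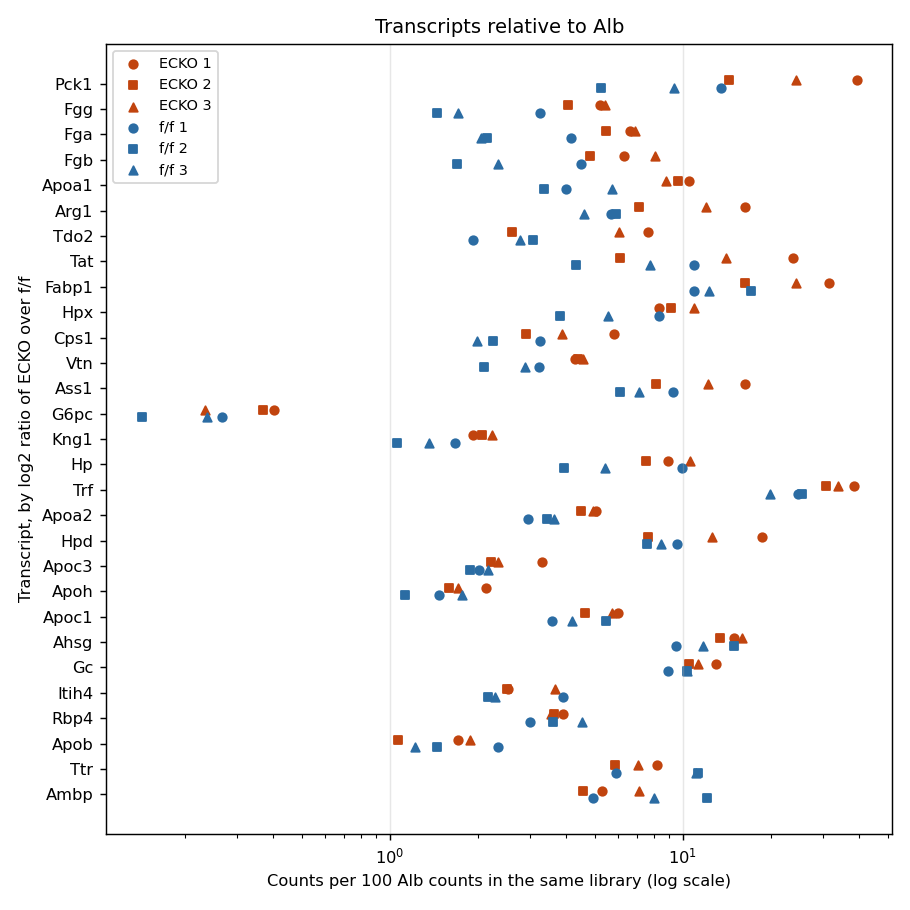
Points are counts per 100 Alb counts (log axis) in each library, ECKO in orange and f/f in blue, with the 29 transcripts sorted by the log2 ratio of ECKO over f/f. Orange and blue separate for 13 transcripts, among them Pck1, Apoa1 and the 3 fibrinogen chains.

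No further hepatocyte gene of these pathways passed. With edgeR, 0 of 13 further apolipoprotein and lipoprotein genes, 0 of 16 clotting factors and inhibitors, 0 of 11 further urea cycle and nitrogen genes, 0 of 11 glucose genes, 0 of 18 amino acid genes and 0 of 15 hepatocyte transcription factors passed. Their median log2 fold changes were 0.15, 0.37, 0.17, 0.21, 0.43 and -0.03. At an unadjusted p under 0.05 the numbers higher and lower were 0 and 1, 1 and 0, 3 and 0, 2 and 1, 3 and 0, and 1 and 1 in that order. Of all tested genes, 10.4% were higher and 13.1% lower at that p. The genes that DESeq2 called in these lists included Got1, Gys2, Sds and Hnf4a, which were higher, and Nr1h4, which was lower. In the same lists limma-voom called none.

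The nearest to the threshold was Nr1h4, the bile acid receptor FXR, at 17.2, 13.3 and 14.1 CPM in ECKO and 23.5, 20.7 and 27.0 CPM in f/f, without overlap (log2 fold change -0.68, SE 0.15; edgeR adjusted p = 0.0535). Hnf4a, a master regulator of the hepatocyte, was at 56.2, 44.8 and 30.2 CPM in ECKO and 28.4, 25.5 and 22.4 CPM in f/f (0.78, SE 0.22; edgeR adjusted p = 0.0927). Its groups did not overlap either.

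Some genes of the hepatocytes around the central vein were called. Of 14 tested pericentral genes 3 fell in ECKO, 0 rose and 11 did not pass, with a median log2 fold change of -0.54, where 2.79% of all genes were called lower. The sum of the 17 listed genes was not lower, at 1017, 1030 and 999 CPM in ECKO and 945, 965 and 946 CPM in f/f. Glul, Oat and Cyp27a1 held most of it. Without these, the summed counts were 759, 1042 and 665 in ECKO and 1562, 1915 and 2314 in f/f. Lect2, a secreted target of Wnt signalling, fell to 4, 2 and 2 counts in ECKO, against 28, 37 and 45 counts in f/f (log2 fold change -3.27, SE 0.49; edgeR adjusted p = 0.0178). Gulo, which makes vitamin C, fell to 1.34 ± 0.596 CPM in ECKO, against 4.77 ± 0.699 CPM in f/f (SD, n = 3 each; -1.83, SE 0.36; edgeR adjusted p = 0.0384). Rgn, the calcium-binding lactonase regucalcin, fell to 21.1, 19.1 and 15.4 CPM in ECKO, against 30.6, 39.8 and 38.9 CPM in f/f (-0.97, SE 0.16; edgeR adjusted p = 0.0241). For all 3 genes, f/f 1 lay above all 3 ECKO libraries. The ECKO counts of Lect2 all lay below the filter's minimum count of 10, so Lect2 was tested only through its f/f counts. With no filter on low counts its log2 fold change was -3.25 (edgeR adjusted p = 0.00836).

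With single libraries left out, the folds stayed near these values while the adjusted p was often above the threshold. Lect2 missed the threshold without ECKO 1, 2 or 3 or f/f 3 (adjusted p 0.0596 to 0.0851), and Rgn and Gulo missed it without any library but f/f 1 (0.0572 to 0.101 and 0.0594 to 0.135). Over these fits the log2 fold changes were -3.73 to -3.06 for Lect2, -1.08 to -0.85 for Rgn and -2.15 to -1.51 for Gulo. Of 14 periportal genes 0 passed with edgeR or limma-voom, and the median was 0.19. At an unadjusted p under 0.05, 4 were higher and 2 lower, where 10.4% and 13.1% of all genes were. DESeq2 called 3 higher and 1 lower, where it called 3.43% and 7.58% of all genes. Sds, serine dehydratase, was at 39.8, 25.6 and 19.7 CPM in ECKO and 16.2, 6.78 and 7.75 CPM in f/f (1.47, SE 0.40; edgeR adjusted p = 0.0928). The difference between the 2 zonal lists was not tested.

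**Figure D5:**
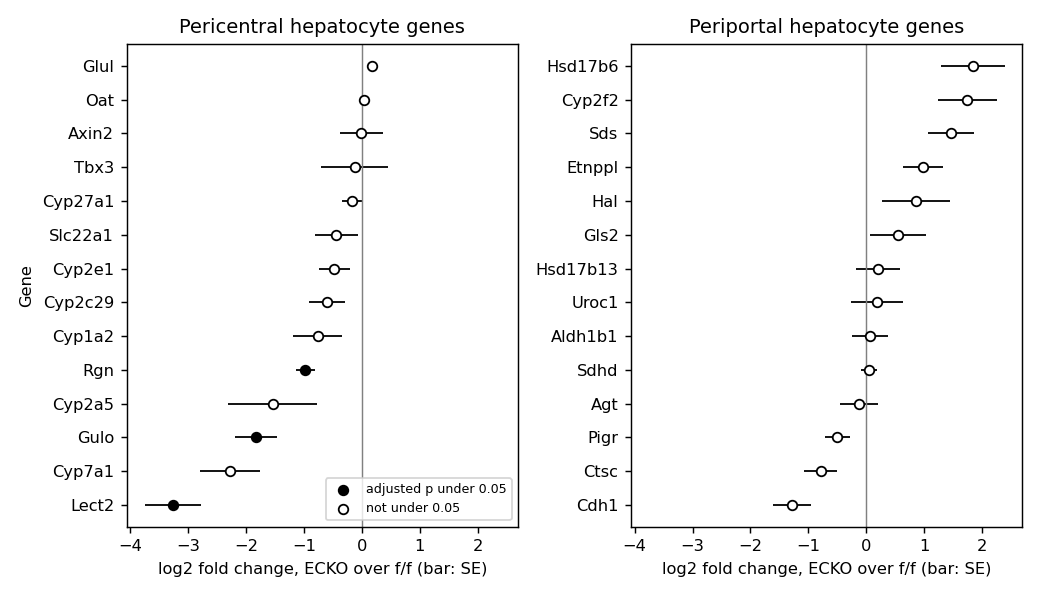
Points are log2 fold changes of ECKO over f/f with the SE as bars for 14 tested pericentral genes (left) and 14 periportal genes (right), filled where the adjusted p was under 0.05. Lect2, Gulo and Rgn are the filled points, at -3.27, -1.83 and -0.97. Lect2 passed the filter on low counts through its f/f libraries only.

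Markers of some other liver cells also differed between the genotypes. Of 15 stellate cell and fibroblast markers 9 fell and 0 rose in ECKO, and their summed share was 0.101% to 0.134% of counts in ECKO and 0.201% to 0.401% in f/f, without overlap. Of 9 tested cholangiocyte markers 0 passed with edgeR, 8 were lower at an unadjusted p under 0.05 and DESeq2 called 6 lower, with a summed share of 0.0125% to 0.0192% in ECKO and 0.0217% to 0.0728% in f/f. Krt8 and Krt18, keratins of both hepatocytes and bile duct cells, fell to 31.5 ± 4.85 and 21.3 ± 3.79 CPM in ECKO, against 67.2 ± 7.004 and 47.4 ± 9.88 CPM in f/f (SD, n = 3 each; edgeR adjusted p = 0.0121 and 0.0239). Krt8 missed the threshold without ECKO 1 or f/f 3 (edgeR adjusted p 0.0686 and 0.0545), and Krt18 without ECKO 1, ECKO 2 or f/f 3 (0.0651 to 0.0990). Their log2 fold changes in those fits were -1.06 for Krt8, against -1.09 with all libraries, and -1.21 to -1.06 for Krt18, against -1.15. In both lists f/f 1 was the f/f library with the lowest share, at 0.201% and 0.0217%, while it was the highest of f/f in the 30 hepatocyte genes. Of 8 tested leukocyte markers 1, Cd79a, fell and 6 were lower at an unadjusted p under 0.05. Among 11 tested Kupffer cell and macrophage markers 0 passed, and 1 was higher and 3 lower at an unadjusted p under 0.05. Their summed shares overlapped, at 0.00815% to 0.0105% in ECKO and 0.00680% to 0.0209% in f/f. Among 5 tested erythroid markers 1 rose, and 4 were lower at an unadjusted p under 0.05. Of the 19 endothelial markers 2, Clec1b and Pecam1, rose in ECKO (log2 fold changes 0.60 and 0.51; edgeR adjusted p = 0.0414 and 0.0456), 8 were higher and 1 lower at an unadjusted p under 0.05, DESeq2 called 6 higher and 1 lower, and the median was 0.23. Of all tested genes, edgeR called 1.24% higher and 2.79% lower at an adjusted p under 0.05. At an unadjusted p under 0.05, 10.4% were higher and 13.1% lower, and DESeq2 called 3.43% and 7.58%. The part of these other cells in the hepatocyte values was not tested.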

How the data were processed

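Messenger RNA was sequenced from 6 LSEC samples, 3 labelled ECKO and 3 labelled Tgfbr2f/f. Values were used from a deposited table of raw gene counts, which also holds the authors' FPKM, as its file headers name them. The submitters' processing notes name HISAT2 2.0.4, StringTie 1.3.0 and the build mm10/GRCm38.p4; no source used here gives the counting program, gene annotation, strandedness or any filter. No per-sample column was left unused.

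Tests used edgeR 4.0.16 under R 4.3.3 (filterByExpr with minimum count 10 and total 15, TMM, robust quasi-likelihood F-test, genotype as the only term, two-sided). SE is the absolute log2 fold change over the square root of F. Alternatives used DESeq2 1.42.0, limma 3.58.1 and other scalings and filters. Replicate numbers were not used to pair the libraries in the main test. The members, gene lists and the rule for named genes were chosen with earlier results of these data known: all 30 members, with every library's value for the most abundant per role, the widest range and any that passed, and the 4 list genes with the smallest p. Library values of other members and of list genes that passed were added after their values were seen. Angptl8 and Clec4m were not analysed here. Counts limit precision by counting error and replicate spread, and no molecular identifiers are described.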

Additional observations from a re-analysis of the deposited data

How the results depend on the processing

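The count of all genes called was 552. It was 1272 under total count scaling, 1110 when libraries were scaled by endothelial markers, 1508 with DESeq2, 315 with limma-voom, 35 to 1012 without each library in turn, and 1613 without f/f 1 and ECKO 2 together, an alternative chosen after seeing the data. Members called higher, 0 of 30, became 4 with DESeq2, 2 with the replicate block, 3 without f/f 1 and ECKO 2, and 0 to 4 without each library in turn. Members called lower, 0, became 1 with DESeq2, 1 with the replicate block and 1 without f/f 1 and ECKO 2, and stayed 0 without each library in turn. Whether the replicate numbers pair the libraries could not be decided from 3 libraries a group. Correlations of same-numbered deviations were 0.09, 0.15 and -0.05, and those of differently numbered libraries ran from -0.15 to 0.09. The block called 0.957% of all genes higher and 2.08% lower, among them Arg1, Fabp1 and Ambp. Under the block Gulo missed the threshold (log2 fold change -1.89, edgeR adjusted p = 0.0561). The median over the members stayed positive in all 18 alternatives (0.13 to 0.86), while the log2 ratio of the summed share, 0.08, ran from -0.20 to 0.29 without each library in turn, was -0.18 on FPKM and moved by less than the spread of 0.39 in each.

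Some values changed sign, none of them called. Under total count scaling Apoh was -0.015 and Gc -0.0587. On FPKM with a pseudocount of 1 Apoc1 was -0.0427, Apoh -0.0269, Ahsg -0.0470 and Gc -0.128, and with 0.1 Apoc1 was -0.0440, Apoc3 -0.0045, Apoh -0.0336, Ahsg -0.0484 and Gc -0.132. Without f/f 1 and ECKO 2 Apob was 0.21 and Itih4 0.23. Without single libraries the full ranges were -0.46 to 0.18 for Alb, -0.0769 to 0.46 for Apoh, -0.0475 to 0.43 for Ahsg, -0.15 to 1.04 for Hp, -0.123 to 0.39 for Gc, -0.40 to 0.20 for Rbp4, -0.66 to 0.29 for Apob and -0.47 to 0.50 for Itih4. Apob and G6pc could not be fitted on FPKM, where the filter left them out. The cause of these shifts was not tested.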
